A study of Mus musculus with 72 samples.

Results

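Genes for 8 hormones that the liver makes and releases were followed in livers of male mice labelled C57BL/6 (C57BL/6J background in the study's methods): Fgf21, Gdf15, Angptl4, Angptl8, Inhbe, Lect2, Ahsg and Fetub. They were chosen by name, as the rows of the count table whose Ensembl identifiers carry these symbols, and all 8 of 8 were found among 55573 genes. WT mice carried Bmal1 with loxP sites on both alleles (Bmal1 fl/fl) and LKO mice carried Albumin-Cre in addition, so that the floxed Bmal1 is shared by all groups and Cre is driven by the albumin promoter of hepatocytes. Mice of both genotypes were kept either specific pathogen free (SPF), with their microbiota, or germ free (GF) in isolators, on autoclaved chow and a 12:12 light/dark cycle. They were about 10 to 14 weeks old when single housing began. By the study's methods the livers were taken some weeks later, after stool collection, so the mice were older by then. Livers were taken at ZT2, ZT6, ZT10, ZT14, ZT18 and ZT22 (hours after lights on) from 3 mice per group and time, which gave 18 libraries a group and 72 in all.

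Levels are CPM (counts scaled to a common library total) after scaling by TMM factors, a fold change is on the log2 scale, and a gene was called when its adjusted p from edgeR was under 0.05 across all genes tested. Libraries held 17369927 to 22076113 counts. Bmal1, listed as Arntl, is counted over the whole gene and not over its deleted part, so its level does not check the genotype: its median was 15.6 CPM in SPF WT and 11.6 CPM in SPF LKO livers. Among clock genes, LKO livers of SPF mice had more Npas2 than WT livers (log2 fold change 3.25, adjusted p = 1.09e-05) and Nr1d1 was lower (-2.93, adjusted p = 5.93e-05). In clock genes 4 libraries stood apart from the others of the same group and time. Replicate 2 of SPF LKO at ZT14, as labelled, held 0.219 CPM of Npas2, and replicate 1 of SPF LKO at ZT18 held 1.82 CPM, beside at least 24.0 CPM in the other SPF LKO libraries of those times. Arntl stood at 2.12 CPM in SPF WT ZT14 replicate 3, beside 15.8 and 19.5 CPM, and at 8.21 CPM in GF WT ZT6 replicate 3, beside 1.62 and 2.43 CPM. Whether any of these libraries carries a wrong label was not tested. These 4 doubted libraries stayed in, and calls of members that changed without them are given.

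Hepatocytes secrete proteins that act on other organs. FGF21 and GDF15 are stress hormones: FGF21 is released in fasting and amino acid shortage and acts through FGF receptors with the coreceptor beta-Klotho, and GDF15 acts on the brainstem receptor GFRAL to lower food intake. ANGPTL4 and ANGPTL8 restrain lipoprotein lipase, the former in fasting and the latter after feeding. Inhbe encodes the subunit of activin E, LECT2 is a hepatokine first known as a chemotactic factor, and AHSG (fetuin-A) and FETUB are abundant plasma proteins of the cystatin superfamily. Genes of the stress hormones are known targets of ATF4, which binds a composite element related to TGATGNAA, and BMAL1 with its partner CLOCK binds the E-box CACGTG.

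Short stretches around these letters are shown because the first motif is tied to the factor deleted here and the second to a shared regulator of stress hormones. The 250 bases before the RefSeq start (GRCm38.p6) were searched on both strands for CACGTG, TGATGNAA and the D-box TTATGNAA, the site of DBP, HLF and TEF, and the letters overlapped in no match. CACGTG was in 6.02% of 32851 promoter windows and in those of 2 of the 7 members with a window, Fgf21 and Gdf15. TGATGNAA was in 3.45% of all windows and in those of 3 members, Fgf21, Angptl8 and Inhbe, while TTATGNAA was in 3.07% of all windows and in none of the members'. Angptl4 had no window in the reference table. Below, each sequence reads 5′ to 3′ along the strand of its gene, and capitals mark the matched letters, which on the opposite strand read TTGCATCA.
Fgf21, CACGTG, chr7:45615524-45615551, minus strand: agtggggagggCACGTGggcgggcctgt
Gdf15, CACGTG, chr8:70632162-70632189, minus strand: acagggcagggCACGTGtgagcatccag
Fgf21, TGATGNAA, chr7:45615611-45615640, minus strand: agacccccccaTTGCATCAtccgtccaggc
Angptl8, TGATGNAA, chr9:21835369-21835398, plus strand: agccatcagtcTGATGCAAtggctgagcct
Inhbe, TGATGNAA, chr10:127352011-127352040, minus strand: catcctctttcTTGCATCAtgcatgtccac
The E-box match lay 50 to 45 bases before the start of Fgf21 and 83 to 78 bases before the downstream of 2 starts of Gdf15, where it falls in the 5′ untranslated exon of the longer Gdf15 transcript. The Inhbe match lay 181 to 174 bases before its RefSeq start and inside the longer 5′ untranslated exon of the Ensembl transcript. Both other TGATGNAA matches lay outside the gene, 139 to 132 bases before the start of Fgf21 and 130 to 123 bases before that of Angptl8. A match is a description of letters, and no binding was measured.

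All members are protein coding, with coordinates on GRCm38. Fgf21 lies on chromosome 7 from 45613886 to 45615490 (minus strand), Gdf15 on chromosome 8 from 70629393 to 70632456 (minus), Angptl4 on chromosome 17 from 33773750 to 33781830 (minus) and Inhbe on chromosome 10 from 127348857 to 127354411 (minus). Lect2 lies on chromosome 13 from 56542464 to 56548502 (minus). Ahsg (22891277 to 22899449) and Fetub (22918334 to 22939778) are neighbours on the plus strand of chromosome 16 with 18885 bases between them. Angptl8 lies on chromosome 9 from 21835510 to 21837347 (plus strand), inside Dock6 on the other strand. The counting did not use the strand and left out reads that overlapped more than 1 gene, so the 3 members with an overlapping gene may lose reads: Dock6 itself had at most 542 counts in a library, and the noncoding neighbours Gm47200 (over Inhbe) and Gm30505 (over Ahsg) at most 6 and 60.

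Levels were compared between genes per kilobase of exon, in SPF WT livers. Ahsg was highest, with a median of 2795 CPM per kb (2358 to 3498), followed by Fetub at 208 (169 to 283) and Lect2 at 120 (79.5 to 230.0). Angptl4 had 40.8 CPM per kb (9.81 to 69.3), Angptl8 26.9 (12.1 to 197) and Inhbe 6.00 (2.62 to 11.4). The stress hormones came last, with 1.55 CPM per kb (0.547 to 4.39) for Fgf21 and 0.993 (0.363 to 2.04) for Gdf15. Ranges of neighbours in this order overlapped except between Ahsg and Fetub, between Lect2 and Angptl4 and between Angptl8 and Inhbe. In raw counts Fgf21 had 2 to 82 and Gdf15 3 to 76 in a library, so their values carry more counting error than those of Ahsg, with 98434 to 249057.

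**Figure D1:**
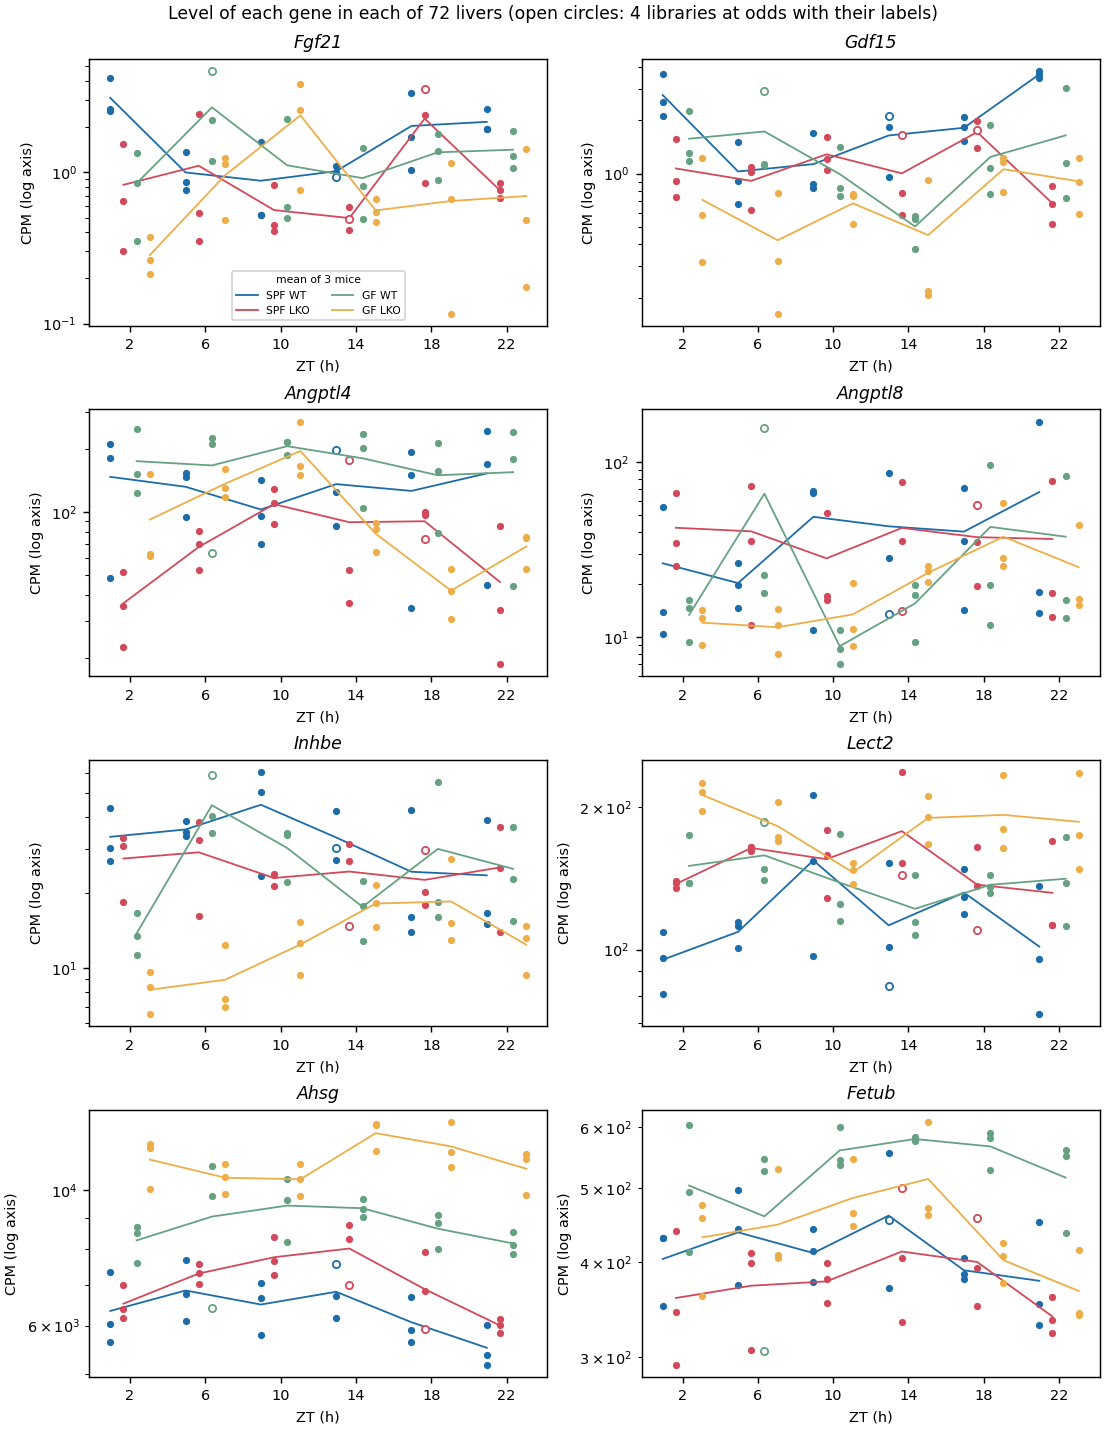
Level of each of the 8 genes in each liver (CPM, log axis) against ZT in hours, with 1 colour a group; points are single livers, lines join means of 3 mice, and open circles are the 4 doubted libraries. Ahsg in GF LKO livers (9778 to 12906 CPM) lies above all SPF livers, and Fgf21 in SPF WT livers is highest at ZT2.

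The first comparison asks how each hormone gene differs between LKO and WT livers. No group carried Albumin-Cre without floxed Bmal1, so Cre and loss of the liver clock cannot be told apart. In whole liver, fewer cells of a type and less RNA per cell cannot be told apart. In SPF mice, with the 6 ZT pooled, 3 of 8 members were called between LKO and WT, against 23.1% of 13159 genes: Gdf15 and Angptl4 fell and Lect2 rose. Of all genes, 11.5% were called lower and 11.6% higher. In GF mice 6 of 8 members were called, against 30.8% of 12662 genes: Gdf15, Angptl4, Inhbe and Fetub fell and Lect2 and Ahsg rose. There 15.2% of all genes were called lower and 15.6% higher. Without the doubted libraries, 6 of 8 members were called in SPF mice against 27.9% of genes, with Fgf21, Fetub and Ahsg in addition, and 6 of 8 in GF mice against 30.1%.

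The second comparison asks what the absence of microbes does within a genotype. In WT mice 3 of 8 members were called between GF and SPF, against 31.8% of 12776 genes, with Ahsg and Fetub higher in GF livers and Gdf15 lower. The shares of all genes were 14.2% higher and 17.7% lower. In LKO mice 6 of 8 members were called, against 36.4% of 13010 genes, with Ahsg, Fetub and Lect2 higher and Inhbe, Angptl8 and Gdf15 lower. Of all genes, 18.1% were called higher and 18.4% lower. Comparisons within SPF or GF mice and within a genotype share groups, so their values are given side by side and are not independent of each other.

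**Figure D2:**
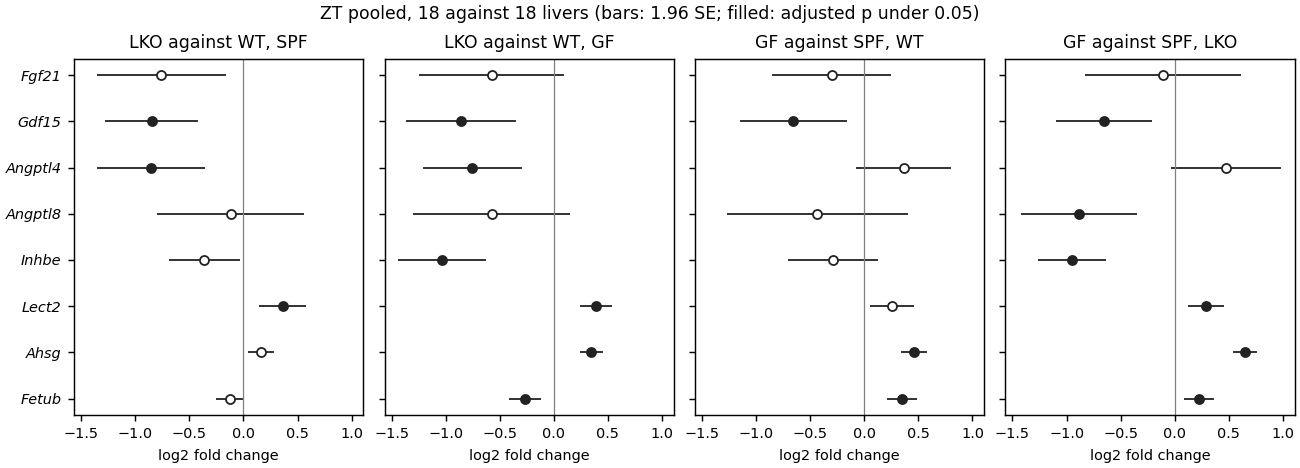
Log2 fold change of the 8 genes (x axis) in the 4 comparisons with ZT pooled, 18 against 18 livers; bars are normal intervals from the SE and filled points have an adjusted p under 0.05. Gdf15 is filled and below 0 in all 4 panels, and Ahsg lies above 0 in all 4, filled in 3.

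A test across all 72 libraries of whether GF mice differed from SPF mice in their LKO effect called none of the 8 members with edgeR, while 0.438% of 13484 genes were called. At an unadjusted p under 0.05 there were 2 members, Inhbe (log2 difference -0.68, SE 0.27, adjusted p = 0.501) and Ahsg (0.18, SE 0.08, adjusted p = 0.704). Of all genes, 876 had such a p. DESeq2 called 0 members and 71 genes. The call of Inhbe in GF but not in SPF mice is therefore not shown to differ between them.

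Gdf15, the gene of the food intake hormone, had its lowest median in GF LKO livers. It ranged from 0.672 to 3.78 CPM (median 1.84) in SPF WT, from 0.516 to 1.97 (1.03) in SPF LKO, from 0.376 to 3.04 (1.13) in GF WT and from 0.162 to 1.23 (0.758) in GF LKO livers. The groups overlapped in range. Its log2 fold change in LKO against WT was -0.85 (SE 0.22, adjusted p = 0.00402) in SPF and -0.86 (SE 0.26, adjusted p = 0.00959) in GF mice. The 2 genotype values were nearly equal, with a difference of -0.02 (interval -0.61 to 0.58). Between GF and SPF mice it was -0.66 (SE 0.25, adjusted p = 0.043) in WT and -0.65 (SE 0.22, adjusted p = 0.0207) in LKO mice. Without SPF WT ZT14 replicate 3 the adjusted p in WT mice was 0.0528, with no filter on low counts it was 0.0842, with at least 10 counts in 3 libraries it was 0.0511, and without the 4 doubted libraries together it was 0.0207 in WT and 0.0517 in LKO mice.

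At single times Gdf15 was called at ZT22 in SPF mice, where the LKO livers had 0.516, 0.676 and 0.846 CPM and the WT livers 3.45, 3.65 and 3.78 CPM. These values did not overlap and gave a log2 fold change of -2.41 (SE 0.43, adjusted p = 0.00541). In GF mice it was called at ZT6, with 0.162, 0.323 and 0.777 CPM in LKO against 1.12, 1.14 and 2.93 CPM in WT livers (-2.02, SE 0.56, adjusted p = 0.0329). The highest of these WT values is GF WT ZT6 replicate 3, and without the doubted libraries the value at ZT6 was -1.40 (adjusted p = 0.151).

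Fgf21, the fasting hormone, was not called by edgeR with ZT pooled and all libraries kept. It ranged from 0.52 to 4.17 CPM (median 1.48) in SPF WT, 0.302 to 3.54 (0.663) in SPF LKO, 0.351 to 4.65 (1.23) in GF WT and 0.116 to 3.81 (0.604) in GF LKO livers. Its log2 fold change in LKO against WT was -0.76 in SPF (interval -1.36 to -0.16, adjusted p = 0.068) and -0.58 in GF mice (interval -1.25 to 0.10, adjusted p = 0.216), and neither was called. In SPF mice it was called by DESeq2 (adjusted p = 0.0483) and with ZT as a factor (adjusted p = 0.0235). The SPF LKO maximum belongs to SPF LKO ZT18 replicate 1, and without the 4 doubted libraries the SPF value was -0.98 (adjusted p = 0.0113) and was called, as it was without that library alone (-0.98, adjusted p = 0.0105). Against SPF mice, GF mice had -0.30 in WT (adjusted p = 0.426) and -0.11 in LKO mice (adjusted p = 0.843).

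With all libraries kept, edgeR called Fgf21 for genotype in SPF mice only at ZT2. LKO livers were also below WT livers without overlap at ZT14 (log2 fold change -1.01, adjusted p = 0.364) and ZT22 (-1.49, adjusted p = 0.116). At ZT6, ZT10 and ZT18 the livers overlapped, with values of 0.14, -0.66 and 0.15. At ZT2 SPF LKO livers had 0.302, 0.65 and 1.53 CPM and SPF WT livers 2.53, 2.61 and 4.17 CPM (log2 fold change -1.91, SE 0.48, adjusted p = 0.0307). The same WT livers were above the GF WT livers at ZT2, which had 0.351, 0.847 and 1.34 CPM (-1.85, SE 0.50, adjusted p = 0.0339). In both, the SPF WT livers stood apart from the other group without overlap. The call within SPF mice was lost when SPF WT ZT2 replicate 3 or SPF LKO ZT2 replicate 1 was left out.

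Angptl4, which inhibits lipoprotein lipase in fasting, fell in LKO mice under both conditions. SPF WT livers had 34.7 to 245 CPM (median 144.5), SPF LKO 18.7 to 178 (72.05), GF WT 44.1 to 250 (194.6) and GF LKO 30.8 to 271 (79.4). Ranges overlapped widely, and the SPF LKO maximum belongs to SPF LKO ZT14 replicate 2. The log2 fold change in LKO against WT was -0.86 (SE 0.25, adjusted p = 0.012) in SPF and -0.75 (SE 0.23, adjusted p = 0.0119) in GF mice. Comparing GF with SPF mice, it was 0.36 in WT (adjusted p = 0.218) and 0.48 in LKO (adjusted p = 0.151), which did not pass. Angptl4 was higher in GF WT than in SPF WT at 6 of 6 ZT, but at ZT22 by only 0.03 (adjusted p = 0.985), and only ZT10 was called. At ZT2 SPF LKO livers had 22.5, 35.2 and 51.7 CPM and SPF WT livers 48.3, 181.5 and 212 CPM (-2.01, SE 0.51, adjusted p = 0.03), with 1 WT liver inside the LKO range. This ZT2 call was lost when SPF WT ZT2 replicate 3 or SPF LKO ZT2 replicate 1 was left out. At ZT18 GF LKO livers had 30.8, 41.97 and 53.1 CPM, all below the GF WT livers at 78.8, 157 and 213 CPM (-1.81, SE 0.49, adjusted p = 0.0397). At ZT10 GF WT livers, at 187, 215 and 217 CPM, were above SPF WT livers at 70.4, 96.0 and 142 CPM (1.01, SE 0.25, adjusted p = 0.0436). This ZT10 call was lost when SPF WT ZT10 replicate 2 or 3, or any single GF WT ZT10 library, was left out.

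Angptl8, which is induced by feeding and insulin, was lower in GF LKO than in SPF LKO livers. It ranged from 10.4 to 170 CPM (median 23.2) in SPF WT, 11.8 to 77.9 (34.8) in SPF LKO, 7.03 to 157 (16.2) in GF WT and 7.99 to 58.6 (15.8) in GF LKO livers. Mice of the same group and time could differ widely: at ZT22 SPF WT livers had from 13.7 to 170 CPM. The GF WT maximum belongs to GF WT ZT6 replicate 3. The LKO effect was -0.12 in SPF (interval -0.80 to 0.56, adjusted p = 0.843) and -0.58 in GF mice (interval -1.30 to 0.15, adjusted p = 0.251). Between GF and SPF mice Angptl8 fell in LKO (log2 fold change -0.88, SE 0.27, adjusted p = 0.0112) and was not called in WT mice (-0.43, SE 0.43, adjusted p = 0.453). At ZT2, GF LKO livers had 9.08, 12.9 and 14.3 CPM, all below the SPF LKO livers at 25.5, 34.5 and 66.4 CPM (-1.80, SE 0.52, adjusted p = 0.0475). At ZT10, GF WT livers had 7.03, 8.60 and 11.01 CPM against 10.98, 66.9 and 68.1 CPM in SPF WT livers (-2.45, SE 0.59, adjusted p = 0.04), and 1 SPF liver reached the GF range. This ZT10 call was lost when SPF WT ZT10 replicate 2 or 3, or any single GF WT ZT10 library, was left out.

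Inhbe, the activin E subunit, had its lowest median in GF LKO livers. It had 13.9 to 60.8 CPM (median 31.9) in SPF WT, 14.0 to 38.5 (24.4) in SPF LKO, 11.3 to 58.9 (22.1) in GF WT and 6.52 to 27.2 (12.7) in GF LKO livers. In LKO against WT it fell in GF mice (log2 fold change -1.03, SE 0.21, adjusted p = 0.000157) and was -0.36 (SE 0.17, adjusted p = 0.116) in SPF mice. In GF against SPF it fell in LKO mice (-0.95, SE 0.16, adjusted p = 2.16e-05) and was -0.29 (SE 0.21, adjusted p = 0.305) in WT mice.

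At single times, with all libraries kept, edgeR called Inhbe at ZT2, ZT6 and ZT10, in the light phase. In the dark, GF against SPF gave -0.92 at ZT14 in WT mice (adjusted p = 0.169), and this was called without the doubted libraries. At ZT22, LKO against WT in GF mice gave -1.01 (adjusted p = 0.258) and GF against SPF in LKO mice -1.025 (adjusted p = 0.164). Other dark values ran from -0.68 to 0.30. A difference between light and dark is therefore not shown. At ZT6, GF LKO livers had 6.997, 7.51 and 12.4 CPM and GF WT livers 34.8, 40.5 and 58.9 CPM (log2 fold change -2.32, SE 0.31, adjusted p = 0.000331), while SPF LKO livers had 16.1, 32.3 and 38.5 CPM (GF against SPF -1.69, SE 0.31, adjusted p = 0.041). Neither set overlapped with the GF LKO livers. At ZT2 GF livers were below SPF livers in WT mice, at 11.3, 13.4 and 16.5 against 26.8, 30.04 and 43.4 CPM (-1.27, SE 0.24, adjusted p = 0.00726). The same held in LKO mice, at 6.52, 8.38 and 9.61 against 18.4, 30.7 and 33.1 CPM (-1.75, SE 0.24, adjusted p = 0.00296). At ZT10 LKO livers were lower in GF mice, at 9.37, 12.5 and 15.3 against 22.1, 33.8 and 34.5 CPM (-1.28, SE 0.29, adjusted p = 0.00745). In SPF mice at ZT10 they had 21.2, 23.6 and 23.8 against 23.3, 50.6 and 60.8 CPM (-0.97, SE 0.28, adjusted p = 0.035), with an overlap by 1 WT liver.

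Lect2, a hepatokine, had a higher mean in LKO than in WT livers at 6 of 6 ZT under both conditions, but not always clearly. At ZT10 the log2 fold change was only 0.01 for SPF livers (adjusted p = 0.981) and 0.07 for GF livers (adjusted p = 0.898). At ZT18 SPF livers differed by only 0.06 (adjusted p = 0.938). With all libraries kept, edgeR called Lect2 for genotype at ZT2 and ZT6 among SPF livers and at ZT2 among GF livers. Its range was 73.1 to 211 CPM (median 110.5) in SPF WT, 110 to 237 (148) in SPF LKO, 108 to 185 (138) in GF WT and 138 to 235 (177) in GF LKO livers. The log2 fold change in LKO against WT was 0.36 (SE 0.11, adjusted p = 0.0137) in SPF and 0.39 (SE 0.08, adjusted p = 0.000105) in GF mice. For GF against SPF it was 0.29 (SE 0.08, adjusted p = 0.00669) in LKO mice and 0.25 (SE 0.10, adjusted p = 0.0562) in WT mice. The WT value passed with DESeq2 (adjusted p = 0.0403), RLE size factors (0.048), ZT as a factor (0.0367), no filter (0.0493) and a filter of 10 counts in 3 libraries (0.0407), and had an adjusted p of 0.128 without the 4 doubted libraries. At ZT2 the groups lined up without overlap between SPF WT (80.7, 96.1 and 109 CPM), SPF LKO (135, 138 and 140 CPM) and GF LKO livers (196, 215 and 224 CPM). The 3 GF WT livers at ZT2 had 138, 138 and 174 CPM, above all SPF WT livers. All 4 comparisons at ZT2 were called, with log2 fold changes of 0.53 (LKO against WT in SPF, adjusted p = 0.0224), 0.49 (in GF, adjusted p = 0.0458), 0.66 (GF against SPF in WT, adjusted p = 0.00814) and 0.62 (in LKO, adjusted p = 0.0112). The first of these calls was lost when SPF WT ZT2 replicate 3 or SPF LKO ZT2 replicate 1 was left out. At ZT6 SPF LKO livers had 162, 165 and 165 CPM and SPF WT livers 101, 112 and 114 CPM (0.59, SE 0.12, adjusted p = 0.00803), and GF WT livers had 141, 148 and 185 CPM (GF against SPF 0.55, SE 0.12, adjusted p = 0.0406). Neither group overlapped with the SPF WT livers.

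Ahsg, which encodes fetuin-A, was higher in GF livers and had its highest median in GF LKO livers. Its range went from 5180 to 7686 CPM (median 6140) in SPF WT and 5831 to 8769 (7006) in SPF LKO to 6405 to 10944 (8766) in GF WT and 9778 to 12906 (11124) in GF LKO livers. The GF LKO livers did not overlap with either SPF group. The log2 fold change between GF and SPF was 0.46 (SE 0.06, adjusted p = 7.35e-07) in WT and 0.65 (SE 0.06, adjusted p = 2.78e-11) in LKO mice, the smallest adjusted p among the members in both. Ahsg was higher in GF livers at 6 of 6 ZT in both genotypes. In LKO against WT it was 0.34 (SE 0.05, adjusted p = 2.48e-06) in GF mice and 0.16 (SE 0.06, adjusted p = 0.0512) in SPF mice, where the value without the 4 doubted libraries was 0.19 (adjusted p = 0.0166). The lowest GF WT value, 6405 CPM, belongs to GF WT ZT6 replicate 3. At ZT22 GF LKO livers had 9820, 11210 and 11445 CPM against 5831, 6018 and 6156 CPM in SPF LKO livers (0.85, SE 0.12, adjusted p = 0.00474). The ranges of these groups did not overlap at 6 of 6 ZT, and in WT mice GF and SPF livers did not overlap at 5 of 6. How many of all genes stood apart as often was not counted, so this is a description only. Single times were called in LKO mice also at ZT2 (0.78, adjusted p = 0.00613) and ZT18 (0.78, adjusted p = 0.0204), and in WT mice at ZT10 (0.54, adjusted p = 0.0434) and ZT22 (0.58, adjusted p = 0.0477). The ZT10 call was lost when SPF WT ZT10 replicate 2 or 3, or any single GF WT ZT10 library, was left out.

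Fetub, the neighbour of Ahsg on chromosome 16, was also higher in GF livers but moved the other way with genotype. It had 331 to 556 CPM (median 409) in SPF WT, 293 to 500 (369) in SPF LKO, 306 to 604 (548) in GF WT and 341 to 610 (435) in GF LKO livers. The log2 fold change between GF and SPF was 0.35 (SE 0.07, adjusted p = 0.00023) in WT and 0.22 (SE 0.07, adjusted p = 0.0125) in LKO mice. In LKO against WT it was -0.27 (SE 0.08, adjusted p = 0.00574) in GF mice and -0.13 (SE 0.06, adjusted p = 0.15) in SPF mice, where it was -0.17 and called without the 4 doubted libraries (adjusted p = 0.0353). At ZT18 GF LKO livers had 375, 407 and 424 CPM and GF WT livers 528, 582 and 590 CPM (-0.47, SE 0.11, adjusted p = 0.0179), with the SPF WT livers at 380, 386 and 404 CPM. The GF WT livers were above both, and above the SPF WT livers by 0.53 (SE 0.11, adjusted p = 0.0428). At ZT10 GF WT livers had 536, 543 and 600.1 CPM against 377, 414 and 442 CPM in SPF WT livers, without overlap (0.45, SE 0.11, adjusted p = 0.0438). This ZT10 call was lost when SPF WT ZT10 replicate 2 or 3, or any single GF WT ZT10 library, was left out.

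Each ZT was also tested on its own, 3 against 3 livers, which gave 48 pairs of a member and a ZT in a comparison. Between LKO and WT in SPF mice 6 pairs were called. The shares of all genes called at ZT2, ZT6, ZT10, ZT14, ZT18 and ZT22 were 6.89%, 7.26%, 11.9%, 0.0%, 0.015% and 3.31%. ZT14 and ZT18 hold 3 of the doubted libraries, and without those libraries 5.51% and 4.63% of genes were called there. At ZT14 edgeR called 0 genes, with 1484 at an unadjusted p under 0.05, and DESeq2 called 134. Between LKO and WT in GF mice 6 pairs were called, and the shares of genes were 4.21%, 11.7%, 13.1%, 6.1%, 8.43% and 4.44%. Without the doubted libraries, which bear on ZT6, ZT14 and ZT18, there were 10 pairs, against 9.69%, 13.6% and 11% of genes at these times. At ZT18 Lect2 (0.51, adjusted p = 0.03) and Ahsg (0.47, adjusted p = 0.0202) were called in addition. In SPF mice Angptl4 was called at ZT6 without them (-0.96, adjusted p = 0.00714), against 10.4% of genes.

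For GF against SPF in WT mice 10 pairs were called, and the shares of all genes at the 6 ZT were 10.1%, 2.62%, 2.89%, 0.0751%, 0.983% and 0.516%. In LKO mice 7 pairs were called, with shares of 8.92%, 0.309%, 0.982%, 0.0601%, 3.71% and 2.25%. At ZT14 edgeR called none of the 8 members in any of the 4 comparisons. The members at an unadjusted p under 0.05 there were 2 and 3 for LKO against WT in SPF and GF mice, and 4 and 1 for GF against SPF in WT and LKO mice. In the same order 1484, 2893, 1958 and 1964 of 13317 genes had such a p. DESeq2 called 0, 1, 1 and 1 members, beside 134, 1321, 287 and 354 genes. Without the doubted libraries edgeR called Lect2, Ahsg and Angptl4 at ZT14 for LKO against WT in GF mice, against 13.6% of genes, and Inhbe, Angptl8 and Ahsg for GF against SPF in WT mice, against 2.32%. At ZT6 Ahsg was then called for GF against SPF in WT mice (0.61, adjusted p = 0.0374), against 3.69% of genes, and Ahsg (0.53, adjusted p = 0.0449) and Angptl4 (1.02, adjusted p = 0.0226) in LKO mice, against 2.76%.

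**Figure D3:**
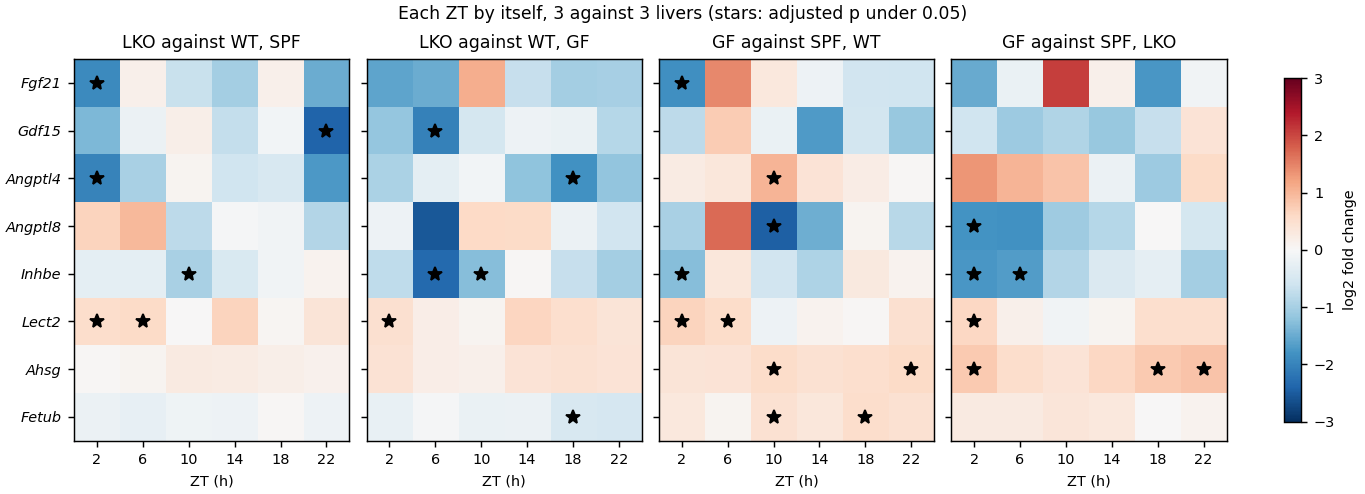
Log2 fold change of each gene (rows) at each ZT in hours (columns) in the 4 comparisons, 3 against 3 livers; red is higher and blue lower in the first group named, and stars mark an adjusted p under 0.05. No star stands at ZT14, and starred blue cells include Gdf15 at ZT22 in SPF mice (-2.41) and Inhbe at ZT6 in GF mice (-2.32).

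Rhythms over the day were tested by a 24 h cosine within each group. In SPF WT mice Fgf21 (adjusted p = 0.00918) and Gdf15 (adjusted p = 0.00346) were called, 2 of 8 members against 15% of 13907 genes. Both peaked around the end of the night: the fitted peak was at ZT22.83 (SE 0.81 h) for Fgf21, with an amplitude of 0.86 (SE 0.18) on the log2 scale, and at ZT21.92 (SE 0.75 h) for Gdf15, with an amplitude of 0.82 (SE 0.16). Observed means of Fgf21 ran from 3.10 ± 0.927 CPM (SD, n = 3) at ZT2 to 0.879 ± 0.617 (SD, n = 3) at ZT10. Those of Gdf15 ran from 3.63 ± 0.167 CPM (SD, n = 3) at ZT22 to 1.03 ± 0.428 (SD, n = 3) at ZT6. Without replicate 1 at every ZT neither was called (adjusted p = 0.115 for Fgf21 and 0.0526 for Gdf15), and without replicate 3 Fgf21 was not (adjusted p = 0.104).

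In SPF LKO mice Angptl4 (adjusted p = 0.0426) and Ahsg (adjusted p = 0.0217) were called, against 21.2% of 14028 genes. Angptl4 went from 36.5 ± 14.6 CPM (SD, n = 3) at ZT2 to 109 ± 20.5 (SD, n = 3) at ZT10, and Ahsg from 6002 ± 163 (SD, n = 3) at ZT22 to 8018 ± 925 (SD, n = 3) at ZT14. Without the 2 doubted SPF LKO libraries Ahsg was called (adjusted p = 0.00649) and Angptl4 was not (adjusted p = 0.12).

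In GF WT mice edgeR called 0 of 8 members, against 26.7% of 13203 genes. Gdf15 was the 1 member with an unadjusted p under 0.05 (adjusted p = 0.0729), beside 5219 genes. DESeq2 called 1 member and 4005 genes. Without GF WT ZT6 replicate 3 Angptl8 was called (adjusted p = 0.0476).

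In GF LKO mice 4 of 8 members were called, against 35% of 13494 genes. Angptl4 (adjusted p = 0.000194) had a fitted peak at ZT7.7 (SE 0.66 h) and an amplitude of 0.93 (SE 0.16), with means of 196 ± 65.8 CPM (SD, n = 3) at ZT10 and 41.96 ± 11.1 (SD, n = 3) at ZT18. Inhbe (adjusted p = 0.000544) and Angptl8 (adjusted p = 0.000651) peaked later, at ZT15.86 (SE 0.72 h) and ZT17.79 (SE 0.77 h), with amplitudes of 0.62 (SE 0.12) and 0.84 (SE 0.17). Fetub (adjusted p = 0.0234) peaked at ZT10.58 (SE 1.13 h) with an amplitude of 0.20 (SE 0.06). The Fetub call was lost in a test of any difference among the 6 ZT (adjusted p = 0.0811) and without replicate 1, 2 or 3 (adjusted p from 0.0793 to 0.141). Fgf21 missed the threshold (amplitude 0.83, SE 0.33, adjusted p = 0.0545) and passed it with DESeq2 (adjusted p = 0.0311) and for any difference among the 6 ZT (adjusted p = 0.0255).

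**Figure D4:**
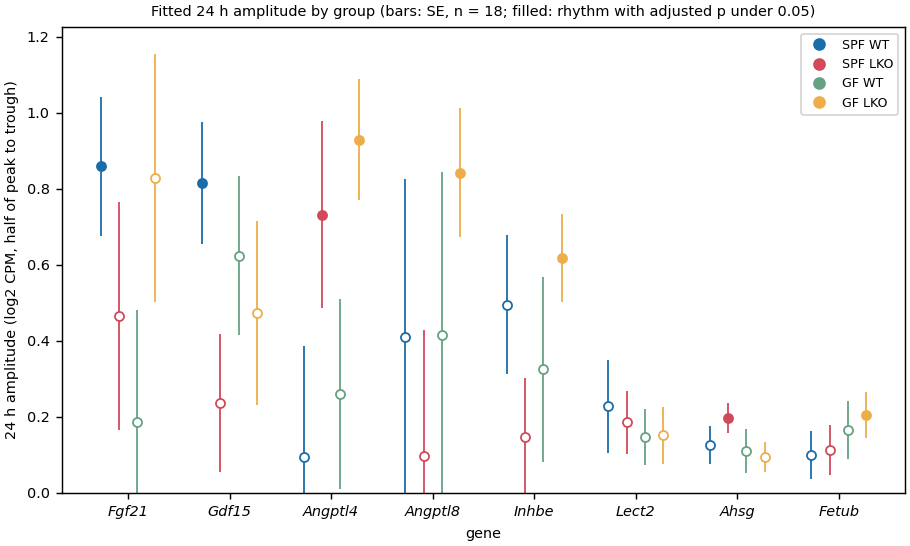
Amplitude of the fitted 24 h cosine (log2 CPM, the distance from mean to peak) for each gene and group, with SE bars from 18 livers; filled points have a rhythm with an adjusted p under 0.05. Filled points are Fgf21 and Gdf15 in SPF WT, Angptl4 and Ahsg in SPF LKO, and Angptl4, Angptl8, Inhbe and Fetub in GF LKO livers.

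A rhythm called in one group and not in another is not a difference, so the difference was tested in pairs of groups. Between genotypes in SPF mice edgeR called 0 of 8 members, against 1.02% of 14442 genes. There 2 members, Gdf15 (adjusted p = 0.0992) and Angptl4 (adjusted p = 0.332), had an unadjusted p under 0.05, beside 1861 genes. Between genotypes in GF mice it called 0 of 8, against 5.81% of 13806 genes. Inhbe (adjusted p = 0.137) and Angptl4 (adjusted p = 0.147) were under 0.05 unadjusted, beside 2687 genes. Between GF WT and SPF WT mice it called 0 of 8, against 0.0355% of 14090 genes, with 3 members and 1589 genes under 0.05 unadjusted. No other tool was run on these differences. Between GF and SPF LKO mice Inhbe (adjusted p = 0.0272) and Angptl4 (adjusted p = 0.0413) were called, against 4.45% of 14234 genes. Without the doubted libraries Inhbe had an adjusted p of 0.0449 and Angptl4 had 0.086.

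The receptors and partners of these hormones were read in the same livers. List counts below stand beside 23.1% of all genes called for LKO against WT in SPF and 30.8% in GF mice, and 31.8% and 36.4% called for GF against SPF in WT and LKO mice. Of 21 genes 17 were tested, and in LKO against WT in SPF mice 5 rose and 4 fell (median log2 fold change -0.14, against -0.01 for all genes). Lpl, lipoprotein lipase, the target of ANGPTL4 and ANGPTL8, rose by 4.14 (SE 0.31, adjusted p = 1.59e-12), from a median of 36.2 CPM in SPF WT to 705 CPM in SPF LKO livers. Lipc, hepatic lipase, rose by 0.65 (adjusted p = 7.9e-08), and Lipg, endothelial lipase, fell by 1.63 (adjusted p = 1.78e-05). Acvr2b, an activin type II receptor, fell by 0.67 (adjusted p = 6.14e-05). In GF mice 3 rose and 5 fell, and Lpl was among those that rose (adjusted p = 3.78e-22). For GF against SPF, 3 rose and 2 fell in WT, and 2 rose and 4 fell in LKO mice. Klb, the coreceptor of FGF21, had medians of 31.7 CPM in SPF WT and 23.9 CPM in SPF LKO livers and fell in LKO mice (-0.45 in SPF, adjusted p = 0.000108). Gfral and Ret, the brain receptor pair of GDF15, had a median of 0 CPM in every group.

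Relatives of the members were read next. In SPF mice 1 of 13 tested rose in LKO livers, Fst (0.91, adjusted p = 0.014), which encodes the activin antagonist follistatin, and 2 fell, Fgf1 (-0.72, adjusted p = 0.000666) and Kng2 (-0.34, adjusted p = 0.00151). In GF mice 1 rose and 3 fell. When GF was compared with SPF, 5 rose and 1 fell in WT (14 tested) and 5 rose and 1 fell in LKO mice (13 tested). The list medians were -0.02, -0.10, 0.13 and -0.01. Of 14 tested genes for other liver hormones and binding proteins, 1 rose and 5 fell with LKO in SPF mice (median -0.13), with Selenop (-0.47, adjusted p = 2.53e-06), Serpina6 (-1.02, adjusted p = 1.09e-05) and Enho (-1.08, adjusted p = 7.78e-05) lower and Agt (0.30, adjusted p = 0.00106) higher. In GF mice 2 rose and 5 fell. Between GF and SPF 6 rose in WT mice and 8 did not pass (median 0.24, against -0.02 for all genes), and in LKO mice 6 rose and 2 fell (median 0.12).

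Targets of the integrated stress response, the pathway of ATF4 that also drives Fgf21 and Gdf15, were read as a list of 16 genes, 15 of them tested. In LKO against WT 1 rose and 4 fell in SPF mice (median -0.28) and 2 rose and 5 fell in GF mice (median -0.25). Trib3, a pseudokinase, had -1.90 (adjusted p = 1.18e-05), Asns, asparagine synthetase, -1.55 (adjusted p = 0.000284) and Atf3 -0.80 (adjusted p = 0.00936) in SPF mice, while Atf5 had 0.51 (adjusted p = 0.00114). For GF against SPF 1 rose and 1 fell in WT and 1 rose and 2 fell in LKO mice.

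Fasting targets of PPARA and CREB3L3, the factors that also drive Fgf21 and Angptl4 in fasting, were mostly lower with LKO: of 20 genes 13 fell and 1 rose in SPF mice (median -0.44, against -0.01 for all genes), and 14 fell and 2 rose in GF mice (median -0.77, against 0.01). Cyp4a10, an omega-hydroxylase, fell by 1.55 (adjusted p = 2.51e-06). Slc25a20, the acylcarnitine carrier, fell by 0.47 (adjusted p = 2.19e-06), and Ppara itself fell by 0.67 (adjusted p = 1.98e-05). The 1 gene that rose in SPF mice was Pdk4, a kinase that holds back pyruvate oxidation (1.56, adjusted p = 0.000244), and in GF mice Pdk4 (0.96, adjusted p = 0.00473) and Apoa4, an apolipoprotein (0.73, adjusted p = 0.00171), rose. When GF was compared with SPF, 3 rose and 1 fell in WT, and 5 fell in LKO mice while 15 did not pass. The LKO effect itself differed between GF and SPF mice for Ehhadh, a peroxisomal enzyme of this list (-0.61, adjusted p = 0.0156).

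For insulin and carbohydrate response 17 of 18 genes were tested. With LKO 3 rose and 3 fell in SPF mice (median 0.01), with Irs2 (1.04, adjusted p = 0.000139), Insig2 (0.91, adjusted p = 0.000186) and Ppp1r3c (0.70, adjusted p = 0.022) higher and Txnip (-0.65, adjusted p = 6.08e-05) lower, and 2 rose and 7 fell in GF mice (median -0.19). Between GF and SPF 2 rose and 1 fell in WT and 2 rose and 6 fell in LKO mice. The LKO effect differed between GF and SPF mice for Me1, malic enzyme (-1.30, adjusted p = 0.00103). Clock genes served as the reference list: of 19, 4 rose and 6 fell with LKO in SPF mice, and 5 rose and 6 fell of 18 tested in GF mice. Bhlhe41 (-2.96, adjusted p = 4.47e-06) and Nr1d2 (-1.93, adjusted p = 1.06e-05) were among those that fell in SPF mice. Between the GF and SPF WT mice edgeR called 0 of 19 clock genes, with 1 at an unadjusted p under 0.05 and 0 called by DESeq2. Of all genes, 5429 had such a p there and DESeq2 called 4226. In LKO mice 1 rose and 4 fell of 17 tested. These tests compare means over all ZT without a term for time. A change of phase or amplitude that left the mean in place would not be seen, so unchanged clock genes are not shown.

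Likeness was measured as Pearson's r over the 24 means of group and ZT, among 14636 genes kept over all libraries, and is a description only, since the means share libraries and depth. The nearest genes were Emc3 (r = 0.951), Ociad1 (0.935) and Pla1a (0.933) for Ahsg, and Cd59a (0.925), Fhit (0.915) and Fam25c (0.912) for Lect2. Fetub was most like Plpbp (0.887), Gpld1 (0.886) and Slc27a5 (0.885), and Angptl4 most like Sdc4 (0.886), Ell2 (0.840) and D230025D16Rik (0.837). Inhbe had Sipa1l2 (0.863), Zyx (0.834) and Plekhg6 (0.834) as nearest. The values were lower for Gdf15 with Zfp948 (0.826), Myl6b (0.814) and Spast (0.789), for Angptl8 with Arid3a (0.794), Gse1 (0.763) and Mid1ip1 (0.743), and for Fgf21 with Ets2 (0.724), Cerkl (0.699) and Pawr (0.684). Between members, r was 0.748 for Ahsg with Lect2, 0.708 for Angptl4 with Fetub and 0.608 for Fgf21 with Gdf15.

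Cell type markers were summed to see what else moved with the groups. The 5 hepatocyte markers had medians of 111599 CPM in SPF WT, 63715 in SPF LKO, 139112 in GF WT and 66716 in GF LKO livers (range 50363 to 176853). Alb alone had medians of 83712, 36414, 104308 and 32080 CPM in the same order. It fell in LKO mice (-0.98 in SPF, adjusted p = 3.14e-06), in the direction opposite to Ahsg and Lect2. Without Alb the hepatocyte sum was 27889 and 26879 CPM in SPF and 35253 and 34301 CPM in GF livers, WT before LKO, so that it moved with microbial state as Ahsg and Fetub did. Its part in their differences was not tested. Cholangiocyte markers had medians of 53.7 and 70.7 CPM in SPF and 43.8 and 91.0 CPM in GF livers, again WT before LKO, with single libraries from 26.98 to 162 CPM. Kupffer and macrophage markers had medians between 152 and 197 CPM (91.5 to 343), endothelial markers between 114 and 124 CPM (83.8 to 177) and stellate and fibroblast markers between 266 and 306 CPM (208 to 415). Lymphoid markers were at most 9.14 CPM. Of 4 adipocyte markers Adipoq, Plin1 and Lep had a median of 0 CPM in every group, and of 4 acinar markers of the pancreas Cpa1, Ctrb1 and Pnlip did. The summed level was at most 9.25 CPM for adipocyte and 1.76 CPM for acinar markers.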

How the data were processed

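Livers from 72 mice were sequenced as stranded poly(A) libraries. The authors deposited raw counts per gene, made with STAR 2.6.1b on mm10 and featureCounts 2.0.0 with Ensembl 97 exons; the counting ignored strand and left out reads of several places or genes, which can lower overlapping genes. All 72 columns were used and 0 were left out.

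Counts were tested in R 4.3.3 with edgeR 4.0.16 (quasi-likelihood F test, TMM scaling, filterByExpr, Benjamini-Hochberg threshold 0.05): 36 libraries for each pair of groups with ZT pooled, 72 for the difference of effects, 12 at each ZT, and a 24 h cosine in 18 libraries or its difference in 36. The study's rhythm method, eJTK, was not used here, and the cosine test took its place. DESeq2 1.42.0 was an alternative. TMM factors ran from 0.837 to 0.942 in GF WT and from 0.923 to 1.10 in SPF WT libraries. Small fold changes between these groups therefore depend on the scaling. Scripts were tested on simulated data. Each library is labelled as a separate liver, and p-values measure the spread between these livers. With ZT pooled no ZT term was fitted, so that spread also holds differences between the 6 times. At a single ZT it was estimated over the 12 libraries of all 4 groups. The SE of an edgeR fold change was worked back from its test, as the absolute log2 fold change over the square root of F. Intervals of fold changes are normal intervals from this SE. The SE of amplitudes and peaks came from a least squares fit to log2 CPM. Figures and summaries used Python 3.11.15.

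The members and lists were chosen with earlier results of these data known. Named genes are the members, up to 4 genes a list with the smallest p among those called for genotype in SPF mice, receptors with their level, and the 3 genes most like each member. Some genes that this rule names are not reported here. Apoa4, Ehhadh, Me1, Pdk4, Alb, Nr1d1 and Arntl were named after their values were seen. Promoter windows are from RefSeq (GRCm38.p6).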

Additional observations from a re-analysis of the deposited data

Results flagged for a closer look

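The 24 h rhythm differed between GF and SPF LKO mice for Inhbe (adjusted p = 0.0272) and for Angptl4 (adjusted p = 0.0413) in edgeR's test of the difference. The fitted amplitude of Inhbe was 0.15 (SE 0.16) in SPF LKO and 0.62 (SE 0.12) in GF LKO livers on the log2 scale. Angptl4 had like amplitudes, 0.73 (SE 0.25) and 0.93 (SE 0.16), with fitted peaks at ZT12.31 (SE 1.28 h) and ZT7.7 (SE 0.66 h). With ZT as a factor the adjusted p was 0.264 for Inhbe and 0.199 for Angptl4, and without the doubted libraries it was 0.0449 and 0.086.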

How the results depend on the processing

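Of the fold changes of members under the alternatives, 347 kept direction and side of the threshold, 18 passed it in addition, 4 no longer passed and 7 reversed; of the counts of calls 231 stayed within 1.5 times and 35 did not. The causes were not tested. For LKO against WT in SPF mice with ZT pooled, the 3 members called, against 23.1% of genes, became 5 with ZT as a factor, against 28.1%. They were 5 with the ZT and replicate block, against 27.1%, and 5 with DESeq2, against 24.3%. Without the 4 doubted libraries they were 6, against 27.9%, and without 1 of them from 3 to 5, against 22.6% to 26.6%. Reversed values were small: Angptl8 in SPF mice 0.16 with the replicate block, Fgf21 between GF and SPF LKO mice 0.078 without the 4 libraries and from -0.15 to 0.11 without 1 of them (0.11 without SPF LKO ZT18 replicate 1), and the difference of the LKO effect for Gdf15 0.19 without the 4, 0.02 without SPF LKO ZT14 replicate 2, 0.04 without SPF LKO ZT18 replicate 1 and 0.11 without GF WT ZT6 replicate 3 (lowest -0.011, without SPF WT ZT14 replicate 3).

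At single ZT, no filter on low counts gave 16 and 24 pairs for LKO against WT in SPF and GF mice and 22 and 24 for GF against SPF in WT and LKO mice. DESeq2 gave 14 in GF mice, where it called 796 to 1942 genes at a ZT and edgeR 572 to 1764. It gave 14 in LKO mice, where it called 354 to 1769 genes and edgeR 8 to 1213. Without the doubted libraries 10 pairs were called in GF mice. Leaving out 1 library gave as few as 3 pairs in SPF mice (SPF WT ZT2 replicate 3 or SPF LKO ZT2 replicate 1) and from 6 to 11 for GF against SPF in WT mice (6 without SPF WT ZT10 replicate 2 or 3, or any GF WT ZT10 library). The pairs lost in SPF mice were Fgf21, Lect2 and Angptl4 at ZT2. Where 6 pairs were left in WT mice, every call at ZT10 was lost. No gene counts are given here for no filter or for leaving out 1 library. Those pair counts therefore show no change particular to the members.

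For rhythms, SPF WT had 0 members without replicate 1. SPF LKO had 0 for any difference among the 6 ZT, 1 with no filter, 1 without the doubted libraries and 0 to 1 without a replicate number. GF WT had 1 with no filter, with DESeq2, without the doubted library and without replicate 3. Rhythm differences with no filter gave 1 between genotypes in SPF and 2 in GF mice, and between GF and SPF LKO mice 0 with ZT as a factor and 1 without the doubted libraries. Apart from DESeq2, gene counts under these settings are not given here, so these counts show no change particular to the members.

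Replicate numbers did not pair the samples: of 18 same-numbered pairs a comparison, 2 to 5 had a correlation of deviations over 0.1 (lowest -0.203, highest 0.305). With the replicate block 3 pairs in place of 10 were called for GF against SPF in WT mice at single ZT, and no gene share is given for that setting. The 4 calls at ZT10 among the 10 had adjusted p-values of 0.0747 (Angptl4), 0.0675 (Angptl8), 0.0715 (Ahsg) and 0.0567 (Fetub) with the block. Counts of Fgf21 and Gdf15, at most 82 and 76 in a library, limit what could be detected for them.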
